A study of Mus musculus with 6 samples.

Results

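The 33 Hox genes measured here are homeobox transcription factor genes of the 4 mammalian clusters, taken as every row whose platform symbol is Hox, a cluster letter (a to d) and a paralog number. They are 33 of 39 such genes in the reference gene table and 33 of 19505 genes with a symbol on the arrays. Each had 1 probe set, so no choice between probe sets was needed. Hoxa7, Hoxa9, Hoxb4, Hoxd3 and Hoxd4 are not analysed here. By paralog number 8 genes were anterior (1 to 4), 10 central (5 to 8) and 15 posterior (9 to 13). By cluster 8 belonged to HoxA, 9 to HoxB, 9 to HoxC and 7 to HoxD.

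Hox genes lie in each cluster in the order in which they are used along the body axis, low paralog numbers towards the head and high numbers towards the tail. Adult tissues keep much of the Hox code of their position of origin, mostly in mesenchymal cells such as smooth muscle and fibroblasts. The hindgut, which gives the large intestine, is patterned by the highest paralogs, among them Hoxa13 and Hoxd13. The forebrain and midbrain form in front of the Hox domain.

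RNA from tissue labelled colon of C57BL/6J mice was hybridised to 6 arrays, 3 from control mice (titled PBS) and 3 from mice given MBELN, exosome-like nanoparticles of mulberry bark, by mouth in 100 µl daily for 7 days. The labels do not say whether the control mice were gavaged. Nor do they tie the arrays to separate animals, so a p-value here measures the spread among these arrays alone. That spread may be technical, and arrays within a group also differed in their tissue markers, as given below. Whole tissue was used, and fewer cells of a type and less RNA per cell cannot be told apart in it. The question was which genes differ after MBELN.

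Values are log2 expression as deposited. A gene counts as above background where its value is over the 95th percentile of the 5222 negative-control rows of the same array. That threshold was 8.14, 10.11 and 8.89 for control 1 to 3 and 7.93, 9.34 and 8.47 for MBELN 1 to 3. Most arrays went against their common label. Of 10 colon epithelium markers, 9 were above background on control 1 (all but Cdx2), 1 on MBELN 3 (Aqp8) and 0 on the other 4 arrays. Their summed log2 values ranged from 45.8 to 163 in the control group and from 53.2 to 61.0 in the MBELN group. All 6 smooth muscle markers were above background on control 1, all 7 neuron and glia markers on control 3 and all 7 cardiac markers on MBELN 1. All 7 squamous and all 6 skeletal muscle markers were above background on MBELN 2, and all 7 liver markers on MBELN 3. Some lists were partly above background on further arrays, among them 3 of 7 liver markers on control 3 and 2 of 6 skeletal muscle markers on MBELN 1. Control 2 showed 0 of 6 housekeeping genes and 0.311% of all probe sets above background, against 14.3% to 27.7% on the other arrays. In what follows an array's name is its label only.

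Hox expression above background was seen on control 1 and on no other array, and it was posterior. Hoxa10, Hoxa13, Hoxb13, Hoxd10, Hoxd11 and Hoxd13 passed the threshold there, 6 of 33 Hox genes (18.2%), beside 26.0% of all tested probe sets. With the 99th percentile of the negative controls as the threshold, 1 of them (Hoxd13) passed, beside 6.23% of all probe sets. Of the 15 posterior genes 6 passed, and of the 18 anterior and central genes 0. HoxD gave 3 of them, HoxA 2, HoxB 1 and HoxC 0. On control 2, control 3, MBELN 1, MBELN 2 and MBELN 3 the count was 0 of 33, beside 0.311%, 20.7%, 27.7%, 14.3% and 23.1% of all probe sets.

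**Figure D1:**
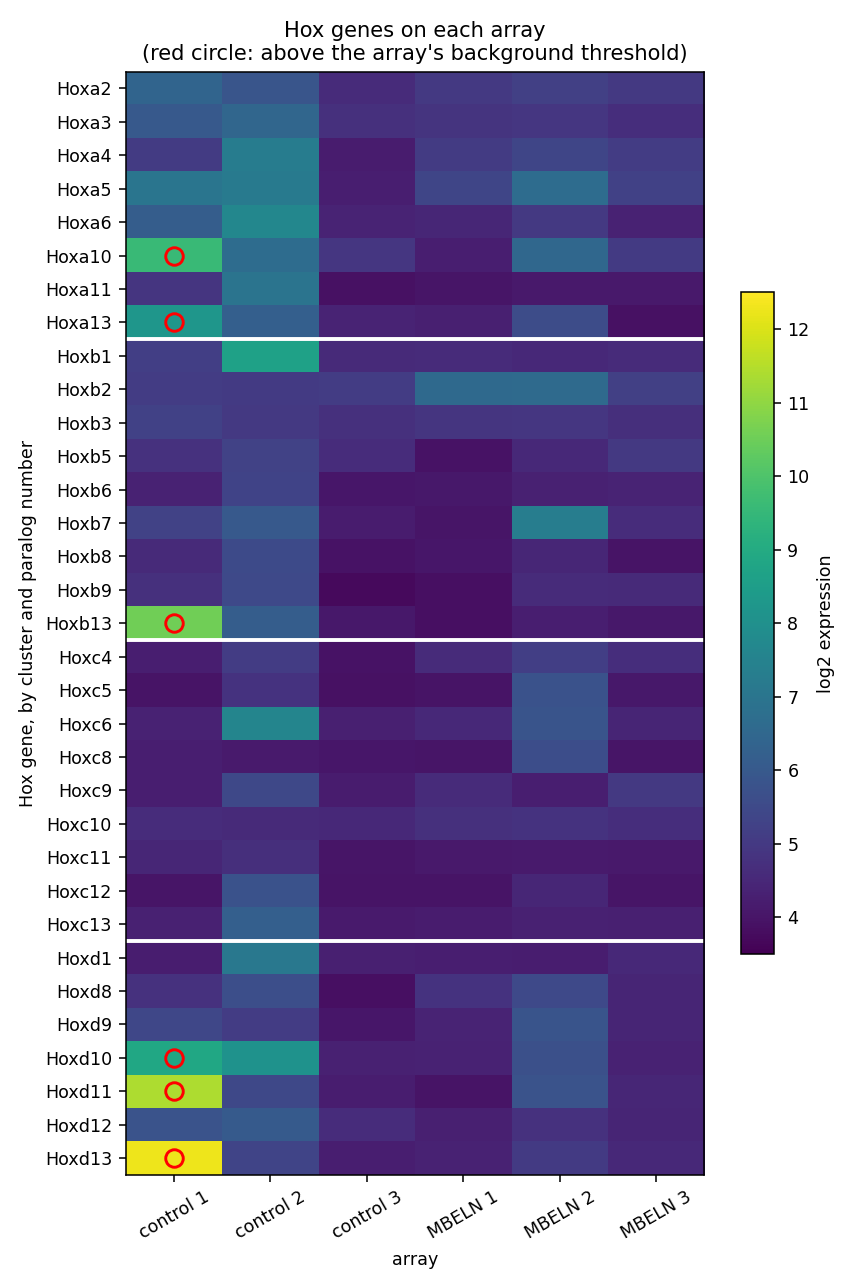
Log2 expression of the 33 Hox genes (rows, by cluster and paralog number, clusters parted by white lines) on the 6 arrays (columns), as colour. Red circles mark values above the array's background threshold, and all 6 of them lie in the column of control 1.

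At the posterior end of HoxD, Hoxd12 was within background between a pair of neighbours above it, and the 250 bases before the annotated starts of these 3 genes are printed for that reason. The sequences are from RefSeq on GRCm38.p6, plus strand, at chr2:74667975-74668224 for Hoxd13, chr2:74674763-74675012 for Hoxd12 and chr2:74679308-74679557 for the first of the 2 annotated starts of Hoxd11. Capitals mark TTTATG or TTTATT on either strand, which are short motifs of the CDX homeodomain proteins of the hindgut.
Hoxd13: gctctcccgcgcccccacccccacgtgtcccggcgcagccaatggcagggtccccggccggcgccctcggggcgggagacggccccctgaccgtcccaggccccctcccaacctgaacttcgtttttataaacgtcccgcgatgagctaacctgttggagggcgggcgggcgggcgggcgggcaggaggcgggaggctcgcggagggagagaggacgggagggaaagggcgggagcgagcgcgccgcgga
Hoxd12: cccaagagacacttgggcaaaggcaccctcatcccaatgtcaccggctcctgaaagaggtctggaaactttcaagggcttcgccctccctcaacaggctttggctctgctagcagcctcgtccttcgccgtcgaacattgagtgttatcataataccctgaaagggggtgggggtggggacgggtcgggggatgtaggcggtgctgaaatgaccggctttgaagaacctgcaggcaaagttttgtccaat
Hoxd11: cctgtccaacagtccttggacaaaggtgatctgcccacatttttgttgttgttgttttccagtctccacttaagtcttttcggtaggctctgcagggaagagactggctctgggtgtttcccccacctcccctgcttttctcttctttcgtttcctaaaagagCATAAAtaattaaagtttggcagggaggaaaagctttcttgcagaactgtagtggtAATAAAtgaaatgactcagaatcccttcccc

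The Hoxd13 window had 74.4% G and C with 31 CpG pairs and neither TTTATG nor TTTATT, the only motifs counted here. The Hoxd12 window had 55.6% with 10 CpG pairs and no motif. The Hoxd11 window had 44.8% with 2 CpG pairs and 2 motifs, both on the minus strand. Hoxd13 and Hoxd11 were above background on control 1 and Hoxd12 was not. The window of the other Hoxd11 start had 60.4% G and C, 20 CpG pairs and no motif. Of the 33 Hox genes, 17 matched the promoter table, with 19 windows. TTTATG or TTTATT was in 4 windows (21.1%: Hoxa2, Hoxa10, Hoxb8 and Hoxd11), against 25.5% of 32851 windows of all genes. Of the genes above background on control 1, 5 were in the promoter table with 7 windows, and 2 of these windows (28.6%) held a motif. Hox windows held a median of 13 CpG pairs, against 6 in all windows. A match describes letters only, and no match says only that these letters are not in this window.

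Hoxd13 (probe set TC0200001091.mm.2), which shapes digits and the anal and genital region, was at 12.26 on control 1. It was at 5.35 and 4.26 on control 2 and control 3, and at 4.36, 5.02 and 4.55 on MBELN 1 to 3. Control 1 was the only array above background, higher than 99.1% of its negative controls. Hoxd11, which acts with Hoxa11 in the forearm and kidney, was at 11.41 on control 1 and, in the same order of arrays, at 5.45, 4.22, 3.97, 5.80 and 4.48. Hoxd10, a gene of the lumbar spinal cord and hindlimb, was at 8.86 on control 1 and at 8.09, 4.34, 4.34, 5.69 and 4.35 on the others. For Hoxd10 the value on control 2 was near that on control 1 but below the higher threshold of control 2. Levels of different probe sets are not set against each other, since each gives its own brightness.

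Hoxd12, which lies between Hoxd13 and Hoxd11, was at 5.81 on control 1, higher than 65.7% of its negative controls and so within background. It was at 6.06, 4.66, 4.27, 4.78 and 4.43 on the other arrays. Both neighbours passed the threshold on control 1 and Hoxd12 did not. Towards the anterior end, Hoxd9 was at 5.42, Hoxd8 at 4.80 and Hoxd1 at 4.22 on control 1, none above background. Evx2, the homeobox gene beyond Hoxd13, was at 5.16 there and above background on no array.

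Hoxb13, the only HoxB gene beyond paralog 9, is known from the tail bud, prostate and distal colon. It was at 10.53 on control 1 and at 6.14 and 4.08 on control 2 and control 3, and its values on MBELN 1 to 3 were 3.86, 4.25 and 4.09. It was above background on control 1 only. Its neighbour among the measured genes, Hoxb9, was at 4.75 on control 1. The HoxB genes Hoxb1, Hoxb2, Hoxb3, Hoxb5, Hoxb6, Hoxb7, Hoxb8 and Hoxb9 all lay between 4.35 and 5.26 there, all within background.

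Hoxa10, needed in the uterus and lumbar vertebrae, was at 9.60 on control 1 and at 6.69 and 4.91 on the other controls, and at 4.25, 6.52 and 5.04 on MBELN 1 to 3. Hoxa13, needed for hindgut, limb and genital development, was at 8.23 on control 1 and at 6.21, 4.39, 4.29, 5.58 and 3.89 on the others. Hoxa13 was the member just inside the threshold, 0.09 above it, and Hoxa5 (7.00) the member just outside it, with a distance of -1.14. Between Hoxa10 and Hoxa13 lies Hoxa11, at 4.89 on control 1 and between 3.91 and 6.97 elsewhere. Its antisense transcript Hoxa11os was at 9.55 on control 1, above background, whereas the other arrays held 4.63 to 5.48. The strand that these probe sets read is not given in the sources used here, so a sense and an antisense signal may not be separable.

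HoxC was the cluster with no gene above background on control 1. Its 9 measured genes (Hoxc4, Hoxc5, Hoxc6, Hoxc8, Hoxc9, Hoxc10, Hoxc11, Hoxc12 and Hoxc13) lay between 3.99 and 4.64 there, and none was above background on any array. By paralog number the control 1 code held 3 of 4 genes numbered 13 (not Hoxc13), 0 of 2 numbered 12, 1 of 3 numbered 11, 2 of 3 numbered 10 (not Hoxc10) and 0 of 3 numbered 9.

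**Figure D2:**
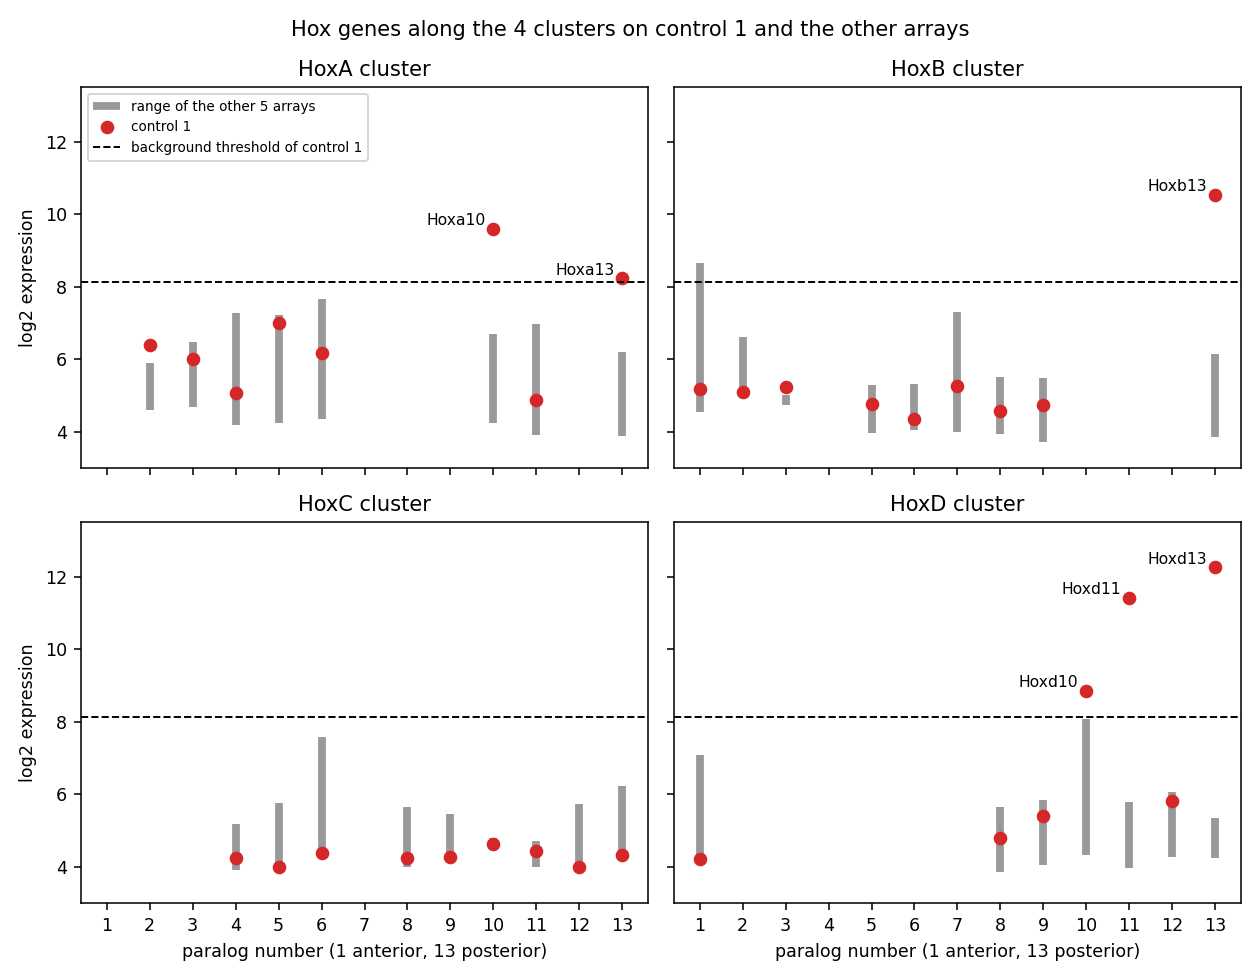
Log2 expression (vertical axis) by paralog number (horizontal axis) in the 4 clusters. Red points are control 1, grey bars span the lowest to highest of the other 5 arrays, and the dashed line is the threshold of control 1 (8.14). The 6 points above the line are named and have paralog numbers from 10 to 13.

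The 27 Hox genes below background on control 1 were between 3.99 (Hoxc5) and 7.00 (Hoxa5). Those nearest to the threshold were HoxA genes: Hoxa5, a gene of lung and gut mesenchyme, at 7.00, Hoxa2, which patterns the face and hindbrain, at 6.39, Hoxa6 at 6.17 and Hoxa3 at 6.00. These were higher than 70.4% to 86.7% of the negative controls of that array. Hoxa5 was also at 7.23 on control 2 and 6.69 on MBELN 2, and at 4.26, 5.37 and 5.25 on control 3, MBELN 1 and MBELN 3. All of these are within background and give no order of expression between arrays.

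To describe arrays within each gene, including values within background, the value on an array was set against the gene's median on the other 5. The median over the 15 posterior genes was 0.97 on control 1, with 12 of 15 above 0, and 1.40 on control 2, with 14 of 15 above 0. It was 0.16 on MBELN 2, also with 14 of 15 above 0, and -0.42, -0.51 and -0.16 on control 3, MBELN 1 and MBELN 3. On control 1 the anterior median was 0.16 and the central median 0.17. On control 2 each class had a median over 1 (anterior 1.24, central 1.19, posterior 1.40), with 0 of 33 genes above background, and its negative controls were also the highest (median 6.60, against 5.18 to 5.85 elsewhere). With control 2 set aside, 18 of 33 genes had their highest value on control 1, 11 of them posterior, and 11 of 33 had it on MBELN 2. Neither these shares nor those above 0 were counted over all probe sets. Apart from the 6 genes above background on control 1 these values are within background and give no order of expression between arrays.

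**Figure D3:**
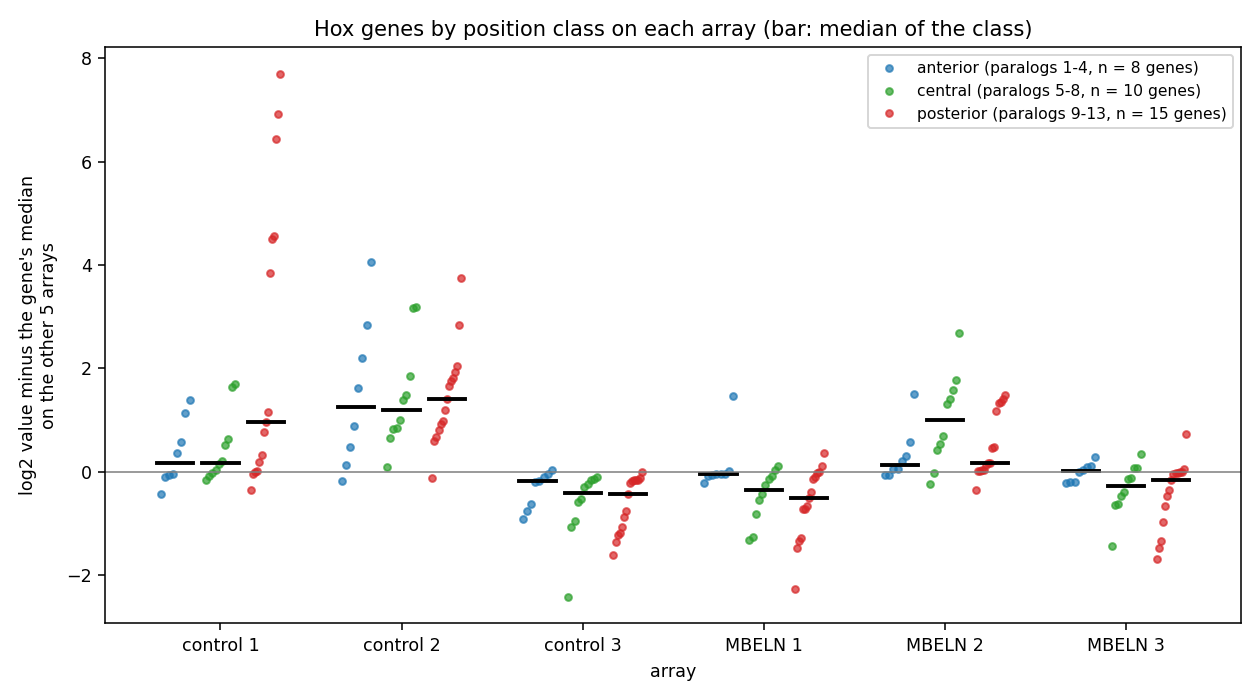
Each point is 1 Hox gene on 1 array (horizontal axis), as its log2 value minus its median on the other 5 arrays (vertical axis). Colours give the class by paralog number and black bars the class median. On control 1 the 6 posterior genes above background lie between 3.84 and 7.71, and on control 2 each class median is above 0.

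MBELN 2 was the array with squamous and skeletal muscle markers. The median deviation of the 10 central genes was 1.01 there, against 0.13 for anterior and 0.16 for posterior genes. The negative controls of MBELN 2 were also the highest after those of control 2 (median 5.85). Of all 33 Hox genes, 28 had a deviation above 0 there, a share not counted over all probe sets, and all values were within background. Hoxb7, a trunk gene, was at 7.32 on MBELN 2, at 5.26, 6.02 and 4.20 on the 3 controls, and at 3.99 and 4.63 on MBELN 1 and MBELN 3. Hoxc8, a gene of the thoracic region, was at 5.64 on MBELN 2 and between 4.01 and 4.26 elsewhere. Hoxc5 was at 5.76 against 3.91 to 4.82, and Hoxc6 at 5.83, second to control 2 (7.59). All stayed under the MBELN 2 threshold of 9.34, with Hoxb7 higher than 78.9% of the negative controls, so no Hox expression was detectable there by this rule. These 4 genes were picked once their values were known.

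On the arrays with brain, heart and liver markers all Hox values were within background, and they are given by range without an order between arrays. On control 3 the 33 genes ranged from 3.72 (Hoxb9) to 5.11 (Hoxb2), and 0 exceeded the median negative control. On MBELN 3 they ranged from 3.89 (Hoxa13) to 5.25 (Hoxa5), again with 0 above that median. On MBELN 1 they ranged from 3.86 (Hoxb13) to 6.57 (Hoxb2), with 2 above it, although 5 of 6 smooth muscle and 5 of 5 mesenchyme markers were above background on that array. The corresponding counts were 14 on control 1, 9 on control 2 and 5 on MBELN 2. No such count was made over all probe sets, so these counts give no order between arrays.

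Counts above background are given next for partner and regulator genes of the Hox system, to be read beside the shares of all probe sets given above, with no test of a difference. TALE cofactors, homeodomain proteins that bind DNA together with Hox proteins, were above background for 3 of 8 measured genes on control 1, control 3 and MBELN 1 and 0 on the other arrays. Meis2 was at 16.40 on control 3, 10.42 on MBELN 1 and 8.79 on control 1, and Pbx3 at 13.45, 8.71 and 10.00. The array with the highest Meis2 and Pbx3 values thus had 0 Hox genes above background. Meis1 was at 9.41 on control 1, 9.76 on control 3 and 8.95 on MBELN 1. Of 6 ParaHox genes, relatives of the Hox genes that act in the gut and nervous system, 0 were above background on any array. Cdx1, an intestinal regulator, was at 7.56 and Cdx2 at 5.07 on control 1, both within background, although Cdx2 marks colon epithelium.

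Of 15 chromatin regulators of Hox clusters (Polycomb repressors and Trithorax activators), the 3 controls had 7, 0 and 6 above background and MBELN 1 to 3 had 7, 5 and 7. Suz12, a core Polycomb subunit, was at 9.93, 9.28, 9.28, 10.83 and 9.28 on control 1, control 3, MBELN 1, MBELN 2 and MBELN 3 and at 5.26 on control 2. Ezh1, a Polycomb methyltransferase, was highest on MBELN 2 at 12.81, and at 10.75, 10.53, 11.19 and 8.65 on control 1, control 3, MBELN 1 and MBELN 3. Kdm6a, which removes the Polycomb methyl mark, was at 9.89 on control 1 and 11.03 on MBELN 2, and Ash2l, a subunit of Trithorax-type methyltransferases, at 9.26 and 10.15. Bmi1 and Rnf2, subunits of another Polycomb complex, each passed on 2 arrays, with Bmi1 at 9.46 on MBELN 1 and Rnf2 at 9.36 on control 1. Retinoic acid sets Hox borders in the embryo, and of 12 genes of its supply and reception the 3 controls had 2, 0 and 1 above background and MBELN 1 to 3 had 3, 0 and 2. The aldehyde dehydrogenase gene Aldh1a1 was at 8.93 on control 1, 10.98 on MBELN 1 and 17.92 on MBELN 3, the liver-marker array. The receptor gene Rxra was at 8.30 on control 1 and 11.96 on MBELN 3. Among the other receptors, Rxrg was at 9.62 and Rara at 8.58 on MBELN 1, and Rarb at 9.29 on control 3. Other regional factors were placed apart from Hox genes. Tbx20, Gata4, Tbx5 and Hand2, which build the heart, were at 13.51, 12.02, 11.13 and 8.38 on MBELN 1. These were 4 of 6 listed heart factors, and the rest were within background there. Lhx2, a forebrain gene, was at 9.39 on control 3, the only 1 of 8 measured forebrain and midbrain factors above background there. Foxa2, a gene of foregut and liver, was at 9.32 on MBELN 3, the only 1 of 4 foregut and stomach factors above background there.

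Between the labelled groups no Hox gene passed the test against the spread of the arrays. With limma's moderated test and Benjamini-Hochberg adjustment over 22206 probe sets, 0 of 33 Hox genes and 0% of all probe sets passed at 0.05, and the smallest adjusted p of a Hox gene was 0.936. At an unadjusted p under 0.05 there were 0 of 33 Hox genes, beside 1.90% of all probe sets. The groups did not overlap for 2 Hox genes (6.06%), Hoxb2 and Hoxc10, beside 6.83% of all probe sets. Of the 33 genes, 25 were lower and 8 higher on MBELN arrays, beside 11192 lower and 11014 higher among all probe sets. The median log2 difference was -0.43, beside -0.01 for all probe sets. Without control 2, 16 were lower and 17 higher and the median was 0.03. The direction of the whole family therefore rested on the array without housekeeping signal. Without control 3, 6 Hox genes had an unadjusted p under 0.05, beside 2.37% of all probe sets, and the median was -0.99.

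For the 6 genes above background on control 1, a control array, a lower MBELN mean is largely given by that choice, and their differences (-2.85 to -1.69) are a description only. Hoxb13 averaged 6.92 ± 3.29 over control arrays (SD, n = 3) and 4.07 ± 0.19 over MBELN arrays (n = 3), a log2 difference of -2.85 (SE 1.62, limma adjusted p = 0.936). Hoxd13 was 7.29 ± 4.34 (SD, n = 3) against 4.64 ± 0.34 (n = 3), a difference of -2.64 (SE 2.11). Both overlapped between groups, since control 3 lay below the highest MBELN value. The median difference of the 6 genes was -2.29, and it was -0.62 without control 1, -2.52 without control 2 and -3.68 without control 3. Control group means lay under the MBELN thresholds, so no fold is given. The 10 colon epithelium markers had a median difference of -3.35 with 0 past the test and 9 of 10 above background on control 1 alone or on control 1 and MBELN 3, and the part of tissue content in the Hox differences was not tested.

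Of the genes taken by smallest p, Hoxb2, a hindbrain gene, was at 5.11, 5.04 and 5.11 on control 1 to 3 and at 6.57, 6.61 and 5.22 on MBELN 1 to 3. MBELN 1 and MBELN 2 were high and MBELN 3 lay just above the controls, a log2 difference of 1.05 (SE 0.55, limma adjusted p = 0.936), with every value within background. Hoxc4 was at 4.25, 5.08 and 3.92 in control and at 4.60, 5.18 and 4.68 in MBELN, and the groups overlapped (difference 0.40, SE 0.52). Of the lower ones, Hoxd12 had a difference of -1.01 (SE 0.55) and Hoxd10 of -2.30 (SE 1.27), and both groups overlapped. Hoxc10, not overlapping, was between 4.52 and 4.64 in control and between 4.69 and 4.80 in MBELN, a span of values wholly within background.

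**Figure D4:**
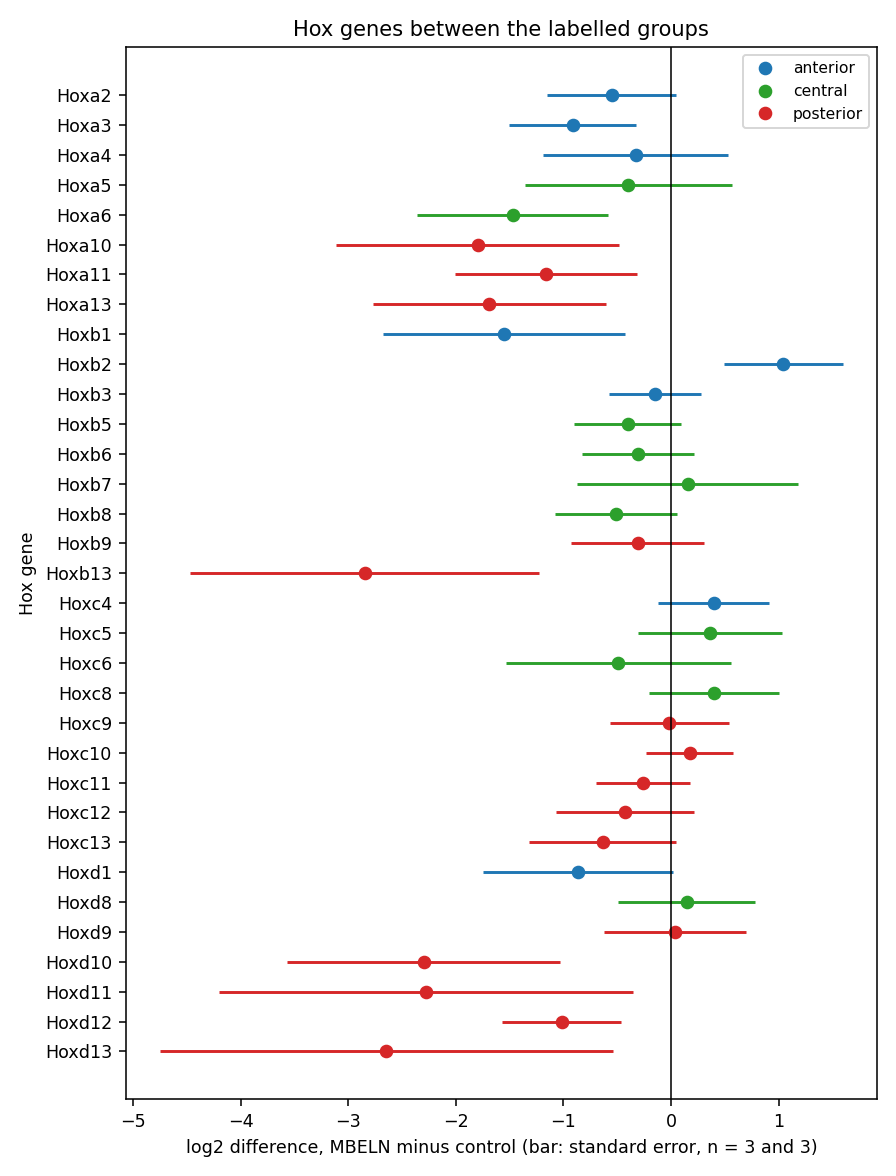
Log2 difference of each of the 33 Hox genes, MBELN minus control (horizontal axis), with its standard error from limma (n = 3 and 3 arrays), coloured by class. Most points lie left of 0 (25 of 33), the bars of Hoxd11 and Hoxd13 are the widest, and 0 genes passed the adjusted test.

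By class 13 of 15 posterior, 6 of 10 central and 6 of 8 anterior genes were lower on MBELN arrays. Over all probe sets 11192 of 22206 were lower. The 13 posterior genes include the 6 above background on control 1, and all other Hox genes were within background on every array. Class medians were -1.01, -0.35 and -0.44 in the same order. Without control 2 the medians were -0.31, 0.27 and -0.03, and without control 1 -0.53, -0.20 and -0.36. All 8 HoxA genes were lower (7 without control 1, 6 without control 2), whereas HoxC was split, 5 lower and 4 higher, with a median of -0.02. HoxC had 1 lower and 8 higher without control 2, and a median of 0.12 with quantile normalisation. Of the other lists, 0 of 8 TALE cofactors, 0 of 6 ParaHox genes, 0 of 15 chromatin regulators and 0 of 12 retinoic acid genes passed limma's adjusted test in either direction, and 0 of each had an unadjusted p under 0.05.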

How the data were processed

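Expression was measured in 6 samples labelled colon, 3 control and 3 MBELN. The deposited table holds log2 values per probe set (3.38 to 19.93), the scale being read from the values. Transcriptome Analysis Console 4.0 is named in the submitters' processing notes. How probes were summarised and arrays normalised is not given in the sources used here, so the deposited values were used unchanged. Of 28846 rows, 6640 were array controls and 22206 were tested. Platform annotation gave 1 symbol for 19572 of these and no single symbol for 2634. Array number limits precision.

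Groups were compared with limma 3.58.1 in R 4.3.3 (lmFit and eBayes, 2-sided, Benjamini-Hochberg over all 22206 probe sets). The fit was tested on simulated data. Python 3.11.15 with pandas 2.3.3 was used for summaries. Genes named were those above background on at least 1 array, the 2 higher and 2 lower members with the smallest p, and others picked with their values known. Genes bordering the clusters and antisense rows were added later. Hox members and lists were chosen with earlier results of these data known. A planned comparison of Hox proteins is not analysed here. Alternatives changed the filter, normalisation, prior, weights, block, threshold, reference and arrays.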

Additional observations from a re-analysis of the deposited data

How the results depend on the processing

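The count of Hox genes past limma's adjusted test was 0 under all 13 alternatives of the fit, where no adjusted p-value of a Hox gene was under 0.787, and 0 of all probe sets passed. With errors this wide, a count of 0 throughout says nothing about stability. At an unadjusted p under 0.05 the alternatives gave 0 to 6 Hox genes. The 6 (Hoxa3, Hoxa6, Hoxa13, Hoxb13, Hoxd10 and Hoxd12) came without control 3, where 2.37% of all probe sets passed. Leaving out 1 array at a time moved the median difference of the Hox genes between -0.99 (without control 3) and 0.03 (without control 2). With the replicate block the median was -0.43 and 0 genes passed. Deviations of same-numbered arrays correlated at 0.11, 0.12 and -0.05, beside -0.18 to 0.10 for arrays of different number. Whether same-numbered arrays share more than a number was not tested. Equal medians moved the median of all probe sets from -0.01 to 0.11 and that of Hox genes to -0.31. A filter at the 25th percentile kept 15 Hox genes (median difference -1.47) and at the median it kept 1, Hoxa10 (-1.80), fewer genes by construction. These filters used the mean over all 6 arrays, and all 6 genes above background on control 1 were among the 15. The more negative medians are therefore largely given by that choice. The differences of Hoxb2, Hoxc4, Hoxd10 and Hoxd12 kept their direction in all 46 refits that held them. These genes were taken by smallest p on the same arrays, so a kept direction is largely given by that choice.

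The count above background on control 1 stayed at 6, the same genes, at the 90th percentile and with quantile normalisation. It was 1, Hoxd13, at the 99th percentile (11.83), which 6.23% of all probe sets passed. The other arrays stayed at 0. Against the mean of the other arrays, the anterior medians were -0.38, -0.078 and -0.34 on MBELN 1 to 3, and the posterior median -0.66 on MBELN 3. With quantile normalisation the anterior median was -0.024 on MBELN 2. Over only the 6 posterior genes above background, which were chosen on control 1 so that its value is given by the choice, the median was 5.50 on control 1 and -1.32, 1.25 and -1.16 on MBELN 1 to 3. The cause of these shifts was not tested. Averaging probe sets could not differ, since each gene had 1.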
